A study of Mus musculus with 12 samples.

Results

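The circadian clock core genes described here are Arntl, Clock, Npas2, Per2, Per3, Cry1, Cry2, Nr1d1, Nr1d2 and Dbp. These 10 genes were taken by name from a list of clock components and not by a rule on their values. Earlier results of these data were known when they were chosen. Each of the 10 was found among the 15191 genes of the authors' gene table. Together they had 165 of the 156805 listed exon bins, the pieces into which a gene's exons are divided for counting, and 0 of the 143 listed RNA editing sites. Frontal cortex RNA of male mice of strain C57BL/6 was sequenced as 6 libraries of genotype Adar2-/-/Gria2R/R and 6 of genotype Adar2+/+ Gria2R/R from litter mates. ADAR2, the product of Adarb1, is an enzyme that converts adenosine to inosine in RNA. All mice, controls included, carried the Gria2R allele, which encodes arginine in the genome where ADAR2 would otherwise edit the AMPA receptor subunit GRIA2, so the controls are not wild type at Gria2. The knockout is of the whole animal as labelled, and the labels state no age, no time of day at tissue collection, no light schedule and no litter.

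In the mammalian clock, BMAL1 (encoded by Arntl) pairs with CLOCK or with its relative NPAS2 and binds E-box sequences, switching on the Per and Cry genes, the REV-ERB genes Nr1d1 and Nr1d2, and Dbp. PER and CRY proteins then repress this pair, while the REV-ERB receptors repress Arntl and Npas2 through RORE sequences and DBP acts on D-box sequences. As a result, in rhythmic tissues the Arntl and Npas2 mRNAs peak about when the Nr1d1, Dbp and Per mRNAs are low, and cerebral cortex is one such tissue. Cry1 peaks later than the other repressor genes, and Clock mRNA often cycles weakly. A group of mice collected at another time of day would therefore be expected to differ in opposite ways in these arms, and this was the pattern examined.

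Sequences that hold the letters of these motifs are shown for the 5 members in which a match was found near a start site. RefSeq windows on build GRCm38.p6, from 250 bases before to 50 after a start site, matched 9 of the 10 members by symbol, with 12 windows in all, and Per2 was not matched. Both strands were searched for the E-box CACGTG, the E'-box CACGTT, the RORE letters GTAGGTCA, and the D-box letters TTATGTAA or TTACGTAA, which share no position with each other in the windows shown. Capitals mark the matches, which are written on the gene's own strand, so an E'-box on the opposite strand appears as AACGTG. No match was found in the windows of Clock, Npas2, Nr1d2 and Dbp. For Arntl 30 bases around the match are given, and for the other genes shown the 250 bases before the start site.
Arntl (chr7:113207529-113207558, plus strand): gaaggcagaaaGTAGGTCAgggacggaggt
Cry1 (chr10:85185055-85185304, minus strand): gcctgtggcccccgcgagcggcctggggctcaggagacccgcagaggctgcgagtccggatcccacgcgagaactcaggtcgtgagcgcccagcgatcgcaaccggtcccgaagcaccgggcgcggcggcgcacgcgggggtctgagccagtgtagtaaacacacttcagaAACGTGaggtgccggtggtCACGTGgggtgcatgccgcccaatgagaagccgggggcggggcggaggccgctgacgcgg
Cry2 (chr2:92434070-92434319, minus strand): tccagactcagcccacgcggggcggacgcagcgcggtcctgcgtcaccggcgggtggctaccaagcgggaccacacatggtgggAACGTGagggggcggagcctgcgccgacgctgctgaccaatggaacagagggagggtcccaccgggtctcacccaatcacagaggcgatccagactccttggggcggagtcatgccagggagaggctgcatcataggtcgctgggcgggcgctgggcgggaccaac
Nr1d1 (chr11:98775378-98775627, minus strand): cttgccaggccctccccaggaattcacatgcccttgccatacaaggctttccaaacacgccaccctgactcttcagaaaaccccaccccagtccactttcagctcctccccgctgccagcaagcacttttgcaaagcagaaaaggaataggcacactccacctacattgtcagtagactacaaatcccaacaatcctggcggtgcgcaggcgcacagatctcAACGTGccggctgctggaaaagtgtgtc
Per3 (chr4:151044666-151044915, minus strand): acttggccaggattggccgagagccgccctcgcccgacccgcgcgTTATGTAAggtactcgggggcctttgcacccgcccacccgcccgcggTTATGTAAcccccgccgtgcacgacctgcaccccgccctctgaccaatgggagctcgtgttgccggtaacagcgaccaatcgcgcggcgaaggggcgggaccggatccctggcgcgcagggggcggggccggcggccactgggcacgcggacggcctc

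The RORE of Arntl began 30 bases after one of its start sites, and a match of these letters was present in 0.621% of all 32851 RefSeq windows of the same length. Cry1 had an E'-box from position -79 and an E-box from position -60, counted from the start site. Cry2 had an E'-box from -166 and Nr1d1 one from -28. The E-box letters were present in 7.15% of all windows and the E'-box letters in 4.68%. Per3 had a pair of D-boxes, from -205 and from -158, where 1.06% of all windows held a D-box of either spelling. A match describes the letters only, and the files hold no measure of factor binding.

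**Figure D1:**
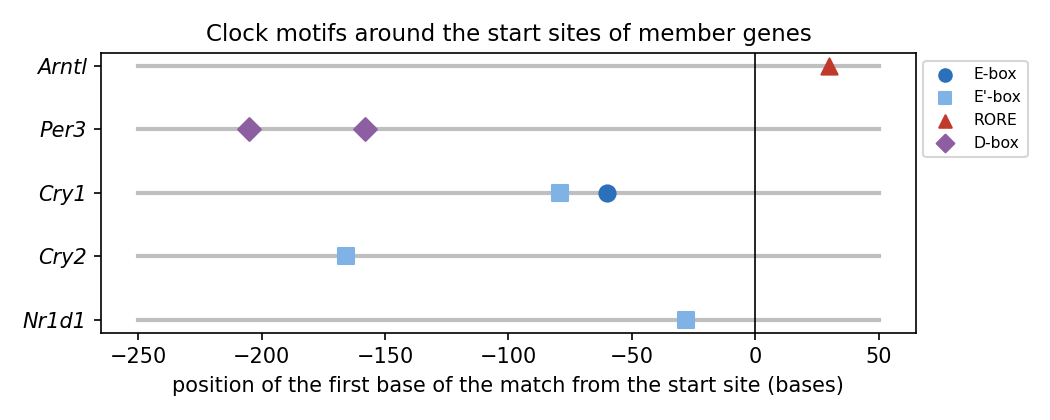
Positions of the 4 motif types in the RefSeq windows of the 5 members with a match (horizontal axis: bases from the start site, grey bar: the window searched from 250 bases before to 50 bases after it). The RORE of Arntl lies at 30 after the start, while the matches of Per3, Cry1, Cry2 and Nr1d1 all lie before it.

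The deposited values limit how these genes can be compared. For each gene the authors gave the normalized read count averaged over both conditions, the ratio of condition B over condition A with its log2, and raw and adjusted p-values, and nothing per library. Which condition is the knockout is not named in the header, so gene ratios carry a condition letter and no genotype, and the table's separate means of A and of B were not used. Library depth, the spread between mice and whether group values overlap are therefore unknown here, apart from what the authors' p-values took up. Adarb1, the targeted gene, was higher in B than in A by 2.21 on the log2 scale, at a mean count of 4181, in the authors' deposited table (adjusted p = 3.06e-126). Of the markers used for cortical excitatory neurons, inhibitory neurons and astrocytes, all 10 were listed, with means from 798 for Tbr1 to 21560 for Slc1a3. Of 5 genes that mark the suprachiasmatic nucleus, the brain's central clock, Vip was listed at 2365 and is also expressed by cortical interneurons. No value was found for the other 4, which were therefore not analysed here. In bulk tissue a lower level can reflect fewer cells of a type or less RNA per cell, and these cannot be told apart.

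No clock core gene differed between the conditions by the authors' test, and the 2 arms did not separate cleanly. Of the 10 members 0 had an adjusted p under 0.05 in the authors' deposited table, where 3 of all 15191 genes (0.0197%) did, and each member's adjusted p was 1. At an unadjusted p under 0.05 the count was also 0 of 10, against 1.86% of all genes. In condition B 7 members were lower than in A and 3 were higher, where 52.9% of all genes were lower. The log2 ratio exceeded 0.1 in size for 5 members, Nr1d1, Arntl, Npas2, Cry1 and Dbp, and for 31.7% of all genes. The median log2 ratio of the members was -0.040, and that of all listed genes was -0.0063. A missed threshold does not show that levels were alike, and the deposited tables give no interval for these ratios.

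Among the positive arm, Arntl encodes BMAL1, the partner that the other activators need. Its mean normalized count was 1774 over both conditions, and B stood at 1.10 times A in the authors' deposited table (log2 ratio 0.14, p = 0.203). Clock, whose protein pairs with BMAL1 and is a histone acetyltransferase, had a mean count of 5233 and was nearly level, at 1.01 times A (log2 ratio 0.016, p = 0.785 in the authors' deposited table). Npas2, the relative of CLOCK that is abundant in forebrain, had a mean count of 906.5, and B stood at 0.909 times A in the authors' deposited table (log2 ratio -0.14, p = 0.473). Arntl and Npas2, which are both RORE-driven, thus had ratios of nearly the same size and opposite sign.

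Among the repressors, the Period genes encode proteins that bind the cryptochromes and enter the nucleus with them. Per2, with a mean count of 763.7, had the log2 ratio nearest 0 of all members, -0.0080 (p = 0.769 in the authors' deposited table). Per3, with a mean count of 1635, had one of -0.064 (p = 0.743 in the authors' deposited table). The cryptochromes bind and inhibit the activator pair directly. Cry1, had a mean count of 466.3, and B stood at 0.926 times A in the authors' deposited table (log2 ratio -0.11, p = 0.551). Cry2 had a mean count of 3192 and a log2 ratio of 0.032 (p = 0.632 in the authors' deposited table). It was the only member outside the positive arm that was higher in B.

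The REV-ERB receptors differed from each other in size. Nr1d1, which encodes REV-ERB alpha, had a mean count of 544.6, and A was 1.31-fold above B in the authors' deposited table (log2 ratio of B over A -0.39, p = 0.162). This was the member with the largest ratio, and 3.56% of all listed genes had a larger one in either direction. Nr1d2, encoding REV-ERB beta, had a mean count of 4870 and was nearly level (log2 ratio -0.015, p = 0.881 in the authors' deposited table). Whether the ratios of Nr1d1 and Nr1d2 differ was not tested. Dbp, a transcription factor that follows the clock with a wide swing in many tissues, had a mean count of 1175, and B stood at 0.931 times A in the authors' deposited table (log2 ratio -0.10, p = 0.327).

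Exons of Nr1d1, Dbp, Cry2 and Arntl overlap exons of a gene on the opposite strand. In the GENCODE M21 annotation, 8.55% of the exon bases of Nr1d1 are shared with Thra and 18.0% of those of Dbp with Sphk2. The shares were smaller for Cry2, at 4.67% with D930015M05Rik, and for Arntl, at 0.44% with Gm45355. The kit keeps strand, but whether counting used it is not given in the sources used here. Thra, a thyroid hormone receptor gene, had a mean count of 11912 and, like Nr1d1, a negative log2 ratio in the authors' deposited table (-0.16, p = 0.0515). Ratios of the other overlapping genes are not given here. The part of Thra reads in the Nr1d1 value was not tested, nor was that of Sphk2 reads in the Dbp value.

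**Figure D2:**
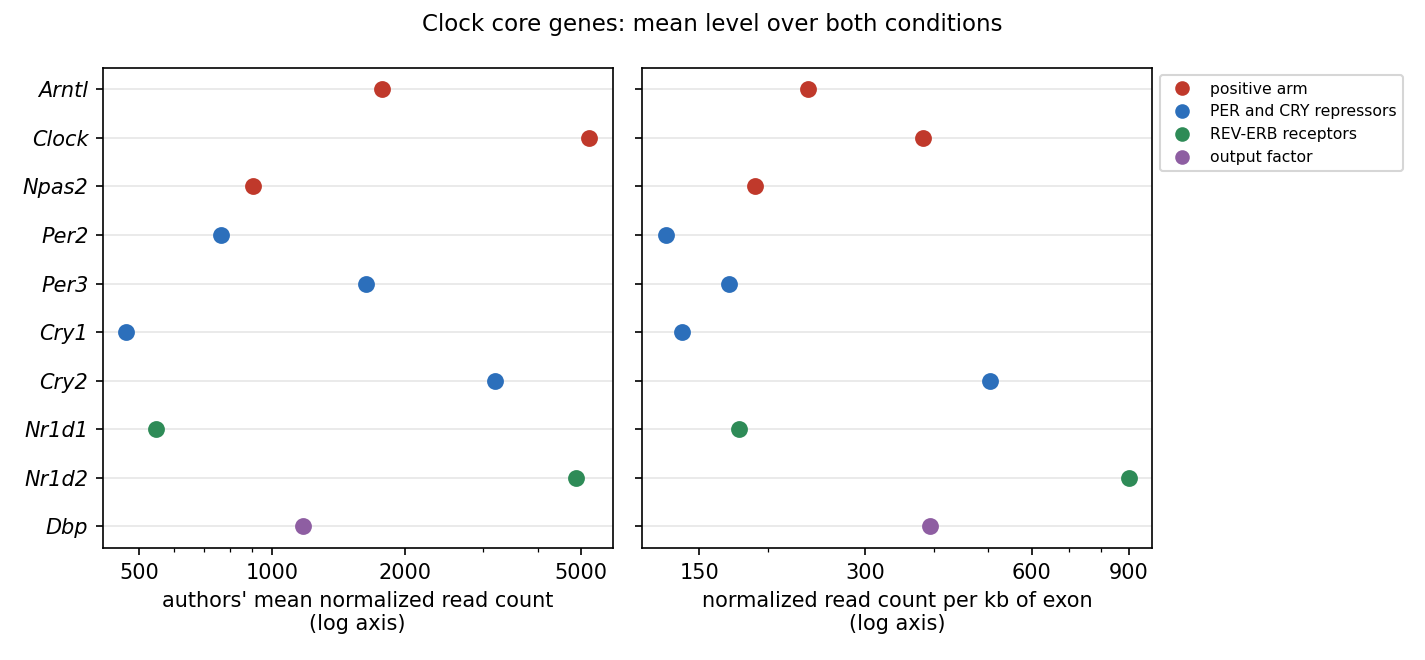
Mean level of each clock core gene over both conditions, on the left as the authors' mean normalized read count and on the right divided by the gene's exon length in kb, both on log axes, coloured by role. Clock is at 5233 in normalized count, which grows with transcript length, and Nr1d2 is the highest per kb, at 900.4.

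For an order of abundance, counts were divided by exon length, taken as the union of a gene's exons in GENCODE M21, which need not be the authors' annotation. On this scale Nr1d2 was the most abundant member, at 900.4 normalized counts per kb over both conditions, followed by Cry2 at 505.0. Dbp and Clock came next, at 392.5 and 381.2 per kb. The following 4 were Arntl at 235.7, Npas2 at 189.2, Nr1d1 at 177.0 and Per3 at 170.1 per kb. Cry1 at 139.6 and Per2 at 130.4 per kb were lowest. Neighbours in this order differed by 1.03-fold between Dbp and Clock up to 1.78-fold between Nr1d2 and Cry2, and whether they differ beyond the spread between mice cannot be read from group means. Npas2, Nr1d1 and Per3 lay within 1.07-fold and 1.04-fold steps of each other, less than the ratio of A over B for Nr1d1. Within paralog pairs, Nr1d2 was above Nr1d1, Cry2 above Cry1, Clock above Npas2 and Per3 above Per2 in count per kb.

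The arms were then set side by side. The median log2 ratio of B over A was 0.016 for Arntl, Clock and Npas2, with 2 higher and 1 lower in B, and -0.064 for the other 7 members, with 1 higher and 6 lower. The difference between these medians was 0.080 on the log2 scale, in the direction of a higher positive arm in B. It rested on Arntl: with Arntl left out it was 0.0032, and with Npas2 left out it was 0.143, both choices made after the values were seen. In sign alone, Arntl, Clock and Cry2 were positive and the other 7 members, Npas2 among them, were negative, and no member's ratio passed the authors' test. Since the labels record no collection time, whether the groups were collected at different times was not tested.

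The other clock genes were followed in a list of 21, all of them in the gene table. In B 14 were lower (66.7%) and 7 higher than in A, with a median log2 ratio of -0.035, where 52.9% of all genes were lower. By the authors' adjusted p 0 of 21 passed, against 0.0197% of all genes. Before adjustment 1 was under 0.05, against 1.86% of all genes. That gene was Usp2, which encodes a deubiquitinase acting on clock proteins and is itself a rhythmic clock target, with a mean count of 938.9 and B at 0.873 times A in the authors' deposited table (log2 ratio -0.20, p = 0.0400, adjusted p = 1). The largest ratio was that of Hlf, a D-box factor related to Dbp, at a mean count of 2242 (log2 ratio -0.26, p = 0.0857 in the authors' deposited table).

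The further transcriptional regulators of this list are given by role. Per1, the Period gene that also responds to stress hormones and neuronal activity, had a log2 ratio of -0.24 (p = 0.268) in the authors' deposited table. Ciart, listed under its older symbol Gm129 and encoding a repressor of the activator pair, was at -0.23 (p = 0.101 in the authors' deposited table). Tef, a D-box factor, was at -0.060 (p = 0.405) in the authors' deposited table. Nfil3, which represses D-box genes and is RORE-driven like Arntl, was at 0.10 (p = 0.245), and Bhlhe40, an E-box repressor, at 0.11 (p = 0.142), both in the authors' deposited table. Its paralog Bhlhe41 had the opposite sign, at -0.078 (p = 0.777 in the authors' deposited table). With Per1, Tef, Hlf, Bhlhe41 and Ciart added to the 7 members outside the positive arm, their median was -0.091 and the arm difference 0.107. Each of these added genes was itself lower in B than in A, and the list was drawn up with earlier results of these data known. Bhlhe40 was not among these added genes, and with it added too, a choice made after the values were seen, the difference was 0.0939. None of these genes passed the authors' adjusted threshold.

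Of the remaining roles, the log2 ratios of the casein kinases that mark PER proteins for turnover were, in the authors' deposited table, -0.024 for Csnk1d and 0.010 for Csnk1e. Those of the F-box genes Fbxl21, Btrc and Fbxw11 lay between -0.042 and -0.0015. The ROR receptors, which activate through the same RORE sequences that REV-ERB proteins occupy, had log2 ratios of 0.014 for Rora and -0.15 for Rorb in the authors' deposited table. Arntl2, the paralog of Arntl, was at 0.037 and the kinase gene Gsk3b at -0.089. Of the clock-associated genes, Timeless was at 0.12, Nampt at 0.058, Nono at -0.0081 and Wee1 at -0.039.

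**Figure D3:**
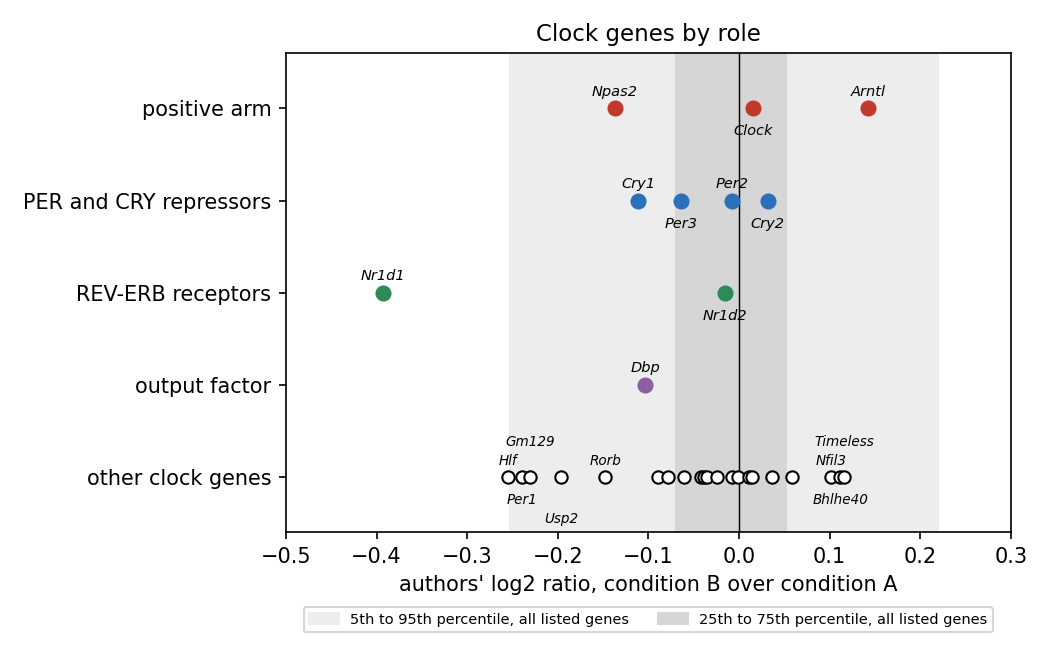
Authors' log2 ratio of condition B over condition A for the 10 clock core genes by role (coloured) and for 21 other clock genes (open circles, named where the ratio exceeds 0.1 in size), over grey bands that hold the middle of all listed genes. Nr1d1 at -0.39 lies outside the wider band, and the positive arm is spread from -0.14 for Npas2 to 0.14 for Arntl.

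Cell type markers were read beside the clock genes, and 0 of the 10 passed by adjusted p in the authors' deposited table. The 4 inhibitory neuron markers, Gad1, Gad2, Pvalb and Sst, had negative log2 ratios in the authors' deposited table, from -0.34 for Gad2 to -0.13 for Sst. The share of all genes with a negative ratio was 52.9%, and the authors' smallest unadjusted p of these 4 markers was 0.167. Their mean counts over both conditions summed to 14397. Of the excitatory markers Slc17a7 and Tbr1 were lower in B and Neurod6 was higher, with log2 ratios from -0.19 to 0.22 and a summed count of 20717. Of the astrocyte markers Gfap and Slc1a3 were lower and Aqp4 was higher, from -0.27 to 0.061, with a summed count of 29521. None of these 10 markers had a listed value of 0, and nor did any other listed gene, the lowest mean count being 15.01. The part of cell composition in the clock gene values was not tested.

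Exon usage within the clock core genes was compared through the exon table. Its ratios are headed as control over Adar2, so that a positive log2 ratio means that a bin makes up more of its gene's reads in the control. Of the 165 bins of the members, all with a p-value, 0 had an adjusted p under 0.05 in the authors' deposited table, where 11 of 149137 bins (0.00738%) did. At an unadjusted p under 0.05 there were 4 bins (2.42%), against 1.67% of all tested bins. The log2 ratio exceeded 0.3 in size for 8 member bins (4.85%), against 3.43% of all tested bins. The bins of a member ranged in number from 10 for Nr1d1 to 24 for Clock, and the bin numbers carry no position in the file.

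Of the 4 bins, 2 were in Per3. Bin E007 of Per3, with a mean count of 172, had a log2 ratio of control over Adar2 of 0.27 (p = 0.00942), and E018, with a mean count of 22.0, one of 0.51 (p = 0.0405) in the authors' deposited table. Bin E011 of Npas2 had one of -0.53 at a mean count of 44.4 (p = 0.0106), and E005 of Cry1 one of -0.34 at 55.7 (p = 0.0288), again in the authors' deposited table. The adjusted p of each of these was 1. The smallest p of the other members in the authors' deposited table belonged to Dbp E003 (0.48, p = 0.0621), Nr1d1 E002 (-0.33, p = 0.0803), Per2 E007 (0.22, p = 0.0823), Cry2 E004 (-0.16, p = 0.113), Clock E007 (0.16, p = 0.164), Nr1d2 E010 (0.12, p = 0.175) and Arntl E016 (0.077, p = 0.432). Arntl bins lay closest together of all members, between -0.085 and 0.097, with Nr1d2 bins between -0.069 and 0.12. Per3 bins spread from -0.24 to 0.51 and Npas2 bins from -0.53 to 0.24.

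The bins of Npas2 followed an order that was noticed after the values were seen. All 9 bins numbered 1 to 9 had a positive log2 ratio of control over Adar2 in the authors' deposited table, from 0.020 to 0.24 with a median of 0.125. All 11 tested bins numbered 10 to 21 had a negative one, from -0.53 to -0.056 with a median of -0.118. The sign thus switched once along the bin numbers of Npas2. Along those of the other members with at least 15 tested bins it switched 9 times for Arntl and Per2, 11 times for Clock and 14 times for Per3. Cry1, Cry2, Nr1d1, Nr1d2 and Dbp had fewer tested bins, and their switches were not counted. Of all 3909 genes with at least 15 tested bins, 24 (0.614%) had a single switch with at least 5 bins on each side. These limits were set after the Npas2 order was seen, so the share is a description only. Apart from E011, each Npas2 bin had an unadjusted p above 0.1, reads that span bins tie neighbouring values together, and bins of one gene are not replicates.

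**Figure D4:**
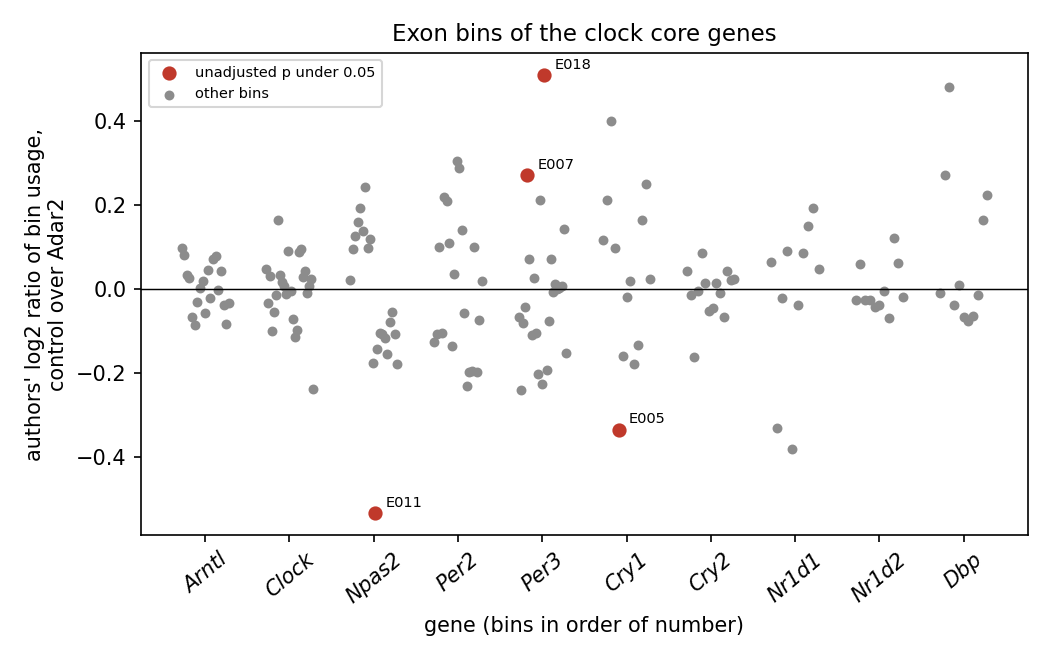
Authors' log2 ratio of bin usage, control over Adar2, for the 165 exon bins of the clock core genes, each gene's bins from left to right by bin number. The 4 bins with an unadjusted p under 0.05 are red and labelled. Npas2 bins lie above 0 up to bin number 9 and below 0 from bin number 10.

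None of the 143 listed editing sites was in a clock core gene, so no editing level of these transcripts is given.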

How the data were processed

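Total RNA of 12 frontal cortices was sequenced after ribosomal RNA removal with a stranded kit, per the labels. The mouse build mm9 and the programs SAMtools 01.19.0, DESeq, HTSeq, Bowtie2 2.02.0 and TopHat2 2.0.6 are listed in the submitters' processing notes, without roles. The values are the authors' comparisons in 3 tables. Per the file headers, the gene table gives a mean normalized count (a signal), the ratio of B over A and its log2 value, and p-values before and after adjustment. The exon table gives the authors' mean normalized count, log2 ratio and p-values per bin, and a dispersion, a score that was not used. The editing table gives, as deposited, the percent of edited reads per genotype, an adjusted p and a position, an other kind of value used only to look up sites. The lowest mean count was 15.01 for a listed gene and 20.0 for a bin. The 2 columns of means for A and B were not used. Group values allow no refit, so depth and precision per library are unknown. The labels do not say whether each library came from its own extraction, and p-values measure only the spread between these libraries.

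Members were matched by symbol, and to bins by Ensembl identifier, all 10 of them. Members and gene lists were chosen with earlier results of these data known. Of the genes first put on the lists, 3 are not reported here and were left out of the counts. Calls used the authors' adjusted p under 0.05, made across all genes with DESeq for genes as far as the notes tell, and across all bins for the exon table. All members were named. Of the other lists, genes with an unadjusted p under 0.05 and the one with the largest ratio were named by rule. The rest of the other clock genes and the cell type markers are given as whole lists outside that rule, with their values known. Thra and the other genes on the opposite strand were named for their overlap. Of bins, those with an unadjusted p under 0.05 and the one with the smallest p of each member were named. Benjamini-Hochberg adjustment was tested on simulated p-values. The motif search was tested on a short made-up sequence that held an E-box, an E'-box and a RORE but no D-box. Tables were read with pandas 2.3.3 in Python 3.11.15. The alternatives are in the closing section.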

Additional observations from a re-analysis of the deposited data

How the results depend on the processing

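The count of 0 of 10 clock core genes by the authors' adjusted p was also 0 with an adjusted p under 0.1, with Benjamini-Hochberg or Bonferroni adjustment over the listed genes alone, and with a mean count of at least 100. Adjustment does not lower a p-value, and the authors' smallest unadjusted p of a member was 0.162. None of these settings could therefore have called a member. The count of 0 of 165 bins was also 0 with an adjusted p under 0.1, with adjustment over the listed bins alone, and with a mean count of at least 50. These settings were a weak check too, since the authors' smallest unadjusted p of a member bin was 0.00942 among 149137 tested bins. The arm difference, 0.080 by medians, was positive under the 8 alternatives tried, though nearly absent without Arntl. It was 0.102 by means, 0.0556 without Cry1, 0.0662 without Clock and 0.107 with the 5 added genes, each of them lower in B. Under alternatives chosen after seeing the data, it was 0.0939 with Bhlhe40 as a further addition and 0.143 without Npas2. Likewise chosen then, it was 0.00316 without Arntl and 0.0556 without Nr1d1. No paired analysis was possible because only group values are given for each gene and bin. Depth per library is unknown, so the smallest detectable difference is too.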

Other observations

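Genes that respond to glucocorticoids and to temperature, which also vary with the time of day, were looked at beside the clock. In a list of 10 glucocorticoid-responsive genes, 6 were higher and 4 lower in condition B than in A, with a median log2 ratio of 0.060, and 0 passed by adjusted p in the authors' deposited table. Cdkn1a, a cell cycle inhibitor, was the 1 gene of the 10 with an unadjusted p under 0.05, where 1.86% of all genes had one. It had a mean count of 177.8 (log2 ratio 0.23, p = 0.0477, adjusted p = 1 in the authors' deposited table). Plin4, a lipid droplet gene, had the largest log2 ratio, 0.50, at a mean count of 76.2 (p = 0.322 in the authors' deposited table). Fkbp5, a cochaperone of the glucocorticoid receptor, was at -0.13 (p = 0.401) and Sgk1, a kinase, at -0.11 (p = 0.154) in the authors' deposited table, both named after their values were seen. Per1 is in this list and in that of the other clock genes.

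The temperature-responsive genes were nearly level. Of 11 genes 6 were higher and 5 lower in B (45.5%, against 52.9% of all genes). The median log2 ratio was 0.0060, and the authors' smallest unadjusted p was 0.391. The largest ratio was that of Hspe1, a mitochondrial chaperonin gene, at -0.080 (p = 0.391 in the authors' deposited table). The cold-inducible RNA-binding protein genes Cirbp and Rbm3 were at -0.035 and -0.00019 in the authors' deposited table, both named after their values were seen.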
